A study of Mus musculus with 6 samples.

Results

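The genes described here mark the neurons that make and release monoamines, the transmitters serotonin, noradrenaline and dopamine. They are the 10 genes Slc6a4, Slc18a2, Tph2, Fev, Ddc, Th, Dbh, Slc6a2, Maoa and Lmx1b. They were chosen by name, and every array probe that carries one of these names was taken, which gave 13 of the 55681 probes that are not controls. Dams of the strain C57BL/6J ate a purified amino acid diet that held 2 mg of folic acid (FA) per kg, or 20 mg, from 1 week before mating and through pregnancy. RNA of the cerebellum of their pups at postnatal day 1 (P1) was hybridized to 6 single-colour arrays, each with a pool of 3 pups from different dams. Each sex had 1 array at 2 mg and 2 arrays at 20 mg, called replicates 1 and 2, since RNA at 20 mg was extracted again from a further batch of pups. With 1 array at 2 mg in each sex, the spread between arrays of a group was measured at 20 mg alone.

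Serotonin neurons lie in the raphe nuclei along the midline of the brainstem, and noradrenaline neurons lie in the locus coeruleus and other brainstem groups. Dopamine neurons lie mostly in the ventral midbrain. All of them send long axons to the rest of the brain, the cerebellum included, while most of the messenger RNA of their marker genes stays in the cell bodies. The first question is therefore on which arrays this RNA was measured at all, and the second whether its level differed between 2 mg and 20 mg of maternal FA. The tissue is cerebellum in the sample titles but whole brain in another label. In RNA of a whole tissue, fewer cells of a type and less RNA per cell cannot be told apart.

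On 5 of the 6 arrays between 51.1% and 71.9% of all probes were well above background, a mark that the image software sets spot by spot. The array labelled female 20 mg replicate 2, called the dim array below, stood apart with 23.3%, and its median processed signal was 5.14 against 39.0 to 162 on the others. Both 2 mg arrays and female 20 mg replicate 1 shared slide 1. The dim array and male 20 mg replicate 1 shared slide 2, which was scanned on an earlier day, and male 20 mg replicate 2 was on slide 3. In males no 20 mg array shared a slide with the 2 mg array, so dose and slide cannot be told apart there. Values below are log2 of the processed signal after quantile normalization, with a floor of 3.32. Levels of 1 probe are compared between arrays and not with those of another probe, and each gene is given by its brightest probe unless another is named.

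The array reads each gene through probes of 60 bases, and 3 of the 10 genes, Slc18a2, Ddc and Lmx1b, have a pair of them. The sequences are shown because the pair of Slc18a2 gave different dose differences although the probes overlap. The probe A_55_P2143946 lies on the plus strand of mm9 at chr19:59370106-59370165, and the dimmer A_55_P2000489 lies at chr19:59370153-59370212. Their overlapping ends read as follows, with the 13 shared bases in capitals.
Slc18a2 A_55_P2143946, last 30 bases: gatcagcaaaggcatgcCTGTTACTGCTCT
Slc18a2 A_55_P2000489, first 30 bases: CTGTTACTGCTCTccaaagaaaaaagaaaa

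The probes of the genes named in the dose comparison are shown next. The Slc6a4 probe is at chr11:76845777-76845836 on the plus strand, starting at base 2678 of the transcript. The Slc6a2 probe is at chr8:95525166-95525225 on the plus strand, starting at base 5672 of the transcript. The brighter Ddc probe, A_55_P2110497, is at chr11:11714106-11714165 on the minus strand, and the dimmer one, A_52_P63905, is at chr11:11776262-11776321 and starts at base 320 of another transcript of the gene. The first 30 bases of these probes and the whole dimmer Ddc probe, which reads coding sequence, are shown in lower case as no stretch stands out.
Slc6a4: ctccgggcccattacaaactatataaatgg
Slc6a2: atcctctttttcagagttttcttttcatct
Ddc A_55_P2110497: tggctgttaacttatcctctgtgtggctaa
Ddc A_52_P63905: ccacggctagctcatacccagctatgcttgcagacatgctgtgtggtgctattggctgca

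RNA of all 10 genes was well above background on both 2 mg arrays, on female 20 mg replicate 1 and on male 20 mg replicate 1. On male 20 mg replicate 2 this held for 9 genes, all but Tph2. The share of all probes marked in this way was 63.6% on the female 2 mg array, 71.9% on female 20 mg replicate 1, 65.8% on the male 2 mg array, 51.1% on male 20 mg replicate 1 and 55.7% on male 20 mg replicate 2. On the dim array, where the share was 23.3%, the 4 genes Ddc, Th, Dbh and Maoa were marked. These 4 were the genes well above background on every array. No spot of the 13 probes was saturated or marked as an outlier.

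Genes of other organs carried this mark too. Of 16 such genes, 3 to 13 were well above background on the 5 arrays other than the dim one, and 1 was on the dim array. Among 25 other brainstem genes (motor neuron, glycine neuron and Hox genes) the count was 22 to 25 on the 5 arrays and 10 on the dim array. For 22 cerebellum genes it was 20 or 21, and 9 on the dim array. For 19 forebrain genes it was 12 to 19, and 5 on the dim array. The part of tissue from outside the cerebellum in the levels of the monoamine genes was not tested.

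**Figure D1:**
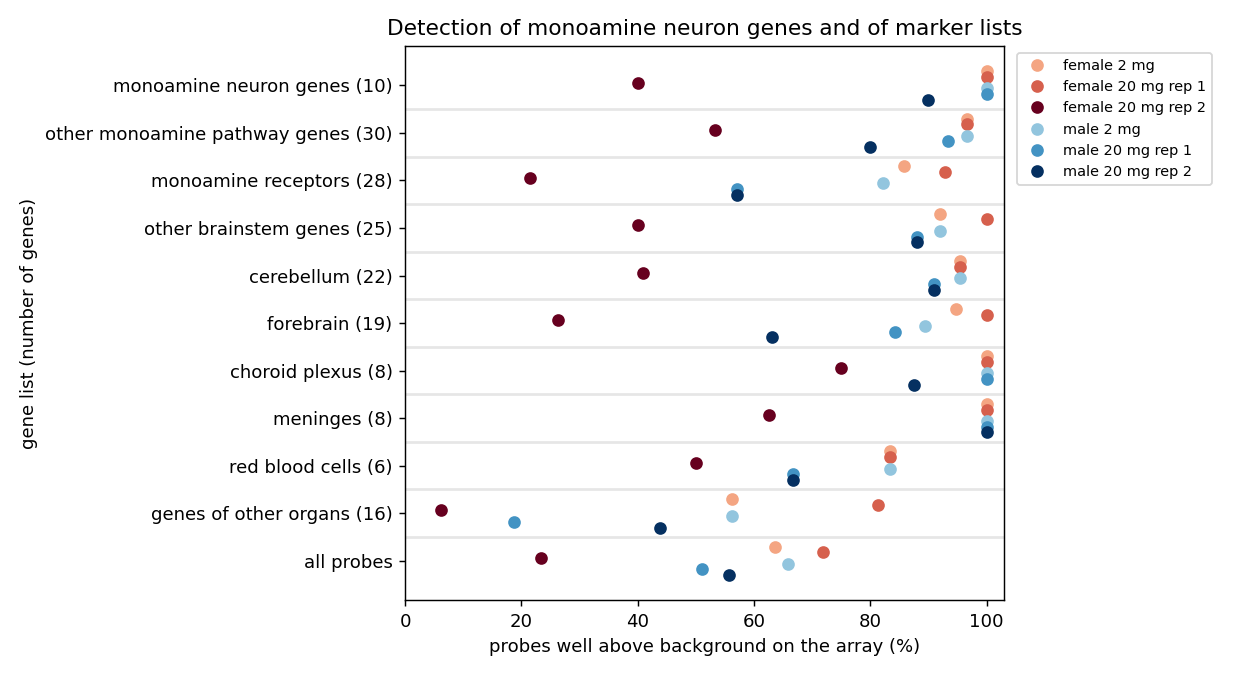
Share of genes (%, x axis) whose brightest probe was well above background, for the 10 monoamine neuron genes, 9 marker lists with their number of genes, and all probes; each point is 1 of the 6 arrays. The monoamine neuron genes lie at 90% to 100% on 5 arrays and at 40% on the dim array.

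Genes of serotonin neurons come first. Tph2, the rate-limiting enzyme of serotonin synthesis in neurons, had levels of 4.25 on the female 2 mg array, 5.89 on female 20 mg replicate 1, 6.43 on the male 2 mg array, 8.06 on male 20 mg replicate 1 and 4.62 on male 20 mg replicate 2. On the dim array it lay at the floor of 3.32. The pools at 20 mg lay on both sides of the 2 mg array in each sex. In males they differed from it by 1.63 and -1.82 (mean -0.09, SD of the 20 mg arrays 2.44, n = 2). In females they differed from it by 1.64 and -0.93 (mean 0.35, SD 1.82, n = 2).

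Fev, the transcription factor that defines serotonin neurons, was at 6.28 on the female 2 mg array, 5.78 on female 20 mg replicate 1 and 3.32, the floor, on the dim array. In males it was at 6.95 at 2 mg, and at 6.45 and 7.36 on the 20 mg arrays. The female mean difference was -1.73 and was -0.50 on replicate 1 alone. The male arrays at 20 mg lay on both sides of the 2 mg array, with a mean difference of -0.04.

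Lmx1b is a transcription factor that serotonin neurons need to form and to keep their identity. It was at 7.41 on the female 2 mg array and at 7.04 and 6.70 on the female 20 mg arrays. The 6.70 comes from a spot of the dim array that was not well above background. In males it was at 7.46 at 2 mg, and the arrays at 20 mg gave 5.83 (replicate 1) and 8.94 (replicate 2). The male pools at 20 mg thus lay 3.11 apart, the lowest and the highest of the 6 arrays.

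Slc6a4 encodes the serotonin transporter, which takes serotonin back into the neuron. Its level was 9.59 on the male 2 mg array, 7.97 on male 20 mg replicate 1 and 6.81 on male 20 mg replicate 2. In females it was 7.66 at 2 mg and 7.91 on 20 mg replicate 1, and on the dim array a spot near background gave 4.54. The male 2 mg array was the highest of all 6, and both male arrays at 20 mg were near or below the female arrays of slide 1. The male differences were -1.61 and -2.78 (mean -2.20, SD of the 20 mg arrays 0.82, n = 2), a 4.58-fold lower level. Slc6a4 and Slc18a2 are among the genes the study names from the male comparison of these arrays, so their male values are given as a description with no p. In females the mean of -1.44 joins differences of 0.25 and -3.12, and rests on the dim array.

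Next are the genes that monoamine neurons share. Slc18a2 encodes the vesicular transporter that loads every monoamine into synaptic vesicles. Its brighter probe gave 10.28 on the male 2 mg array, 9.59 and 8.73 on the male 20 mg arrays, 9.53 on the female 2 mg array, and 9.14 and 8.40 on the female 20 mg arrays. All 4 arrays at 20 mg were below the 2 mg array of their sex. The differences were -0.69 and -1.55 in males (mean -1.12) and -0.39 and -1.13 in females (mean -0.76). The -1.13 rests on a spot of the dim array that was not well above background. The order of the arrays was the same as for Slc6a4 but for a swap of the female 2 mg array and female 20 mg replicate 1.

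The dimmer Slc18a2 probe, which shares 13 bases with the brighter one, gave 8.08 on the male 2 mg array, and 5.35 and 5.68 on the male 20 mg arrays. In females it gave 7.27 at 2 mg, and 7.51 and 7.79 at 20 mg. Its spots on male 20 mg replicate 1 and on the dim array were not well above background. In males it differed from the 2 mg array by -2.73 and -2.40 (mean difference -2.56), past 2.5-fold on each array, while the brighter probe passed 2.5-fold on replicate 2 alone. In females the probes had opposite signs on both arrays.

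Ddc encodes the decarboxylase that makes serotonin and dopamine from their precursors. Its brighter probe was at 11.35 on the male 2 mg array, at 11.11 on male 20 mg replicate 1 and at 8.86 on male 20 mg replicate 2. In females it was at 10.24 at 2 mg, and at 10.26 and 11.14 at 20 mg. Male 20 mg replicate 2 was the lowest of the 6 arrays, and the male pools at 20 mg lay 2.25 apart. The mean difference in males was -1.36 (SD of the 20 mg arrays 1.59, n = 2). The dimmer probe differed from the 2 mg array by 0.35 on male 20 mg replicate 1 and by -2.04 on replicate 2, where its spot was not well above background.

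Maoa, on the X chromosome, encodes a mitochondrial enzyme that breaks down serotonin and noradrenaline and is made by many cell types. Its level was 10.73 on the female 2 mg array, 10.27 and 11.12 on the female 20 mg arrays, 10.39 on the male 2 mg array, and 10.27 and 8.69 on the male 20 mg arrays. The arrays lay within 0.85 of each other in females, and male 20 mg replicate 2 stood below the rest. Male 20 mg replicate 2 was also the lowest array for Ddc and the highest for Fev, Lmx1b and Th.

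Genes of noradrenaline and dopamine neurons complete the set. Th, the rate-limiting enzyme of dopamine and noradrenaline synthesis, was at 10.28 on the female 2 mg array, 9.64 and 11.12 on the female 20 mg arrays, 10.45 on the male 2 mg array, and 9.92 and 11.92 on the male 20 mg arrays. In both sexes replicate 1 lay below the 2 mg array and replicate 2 above it, and the mean differences were 0.47 in males and 0.10 in females.

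Dbh, the enzyme that turns dopamine into noradrenaline, was at 10.08 on the female 2 mg array, 8.38 on female 20 mg replicate 1 and 11.30 on the dim array. In males it was at 10.09 at 2 mg, and at 10.60 and 9.41 at 20 mg. The 2 mg arrays of the sexes differed by 0.01, and the 20 mg arrays lay on both sides of them in each sex. The mean differences were -0.09 in males and -0.24 in females, with SDs of the 20 mg arrays of 0.84 and 2.07 (n = 2 each).

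Slc6a2 encodes the noradrenaline transporter. Its level was 8.39 on the female 2 mg array and 5.34 on female 20 mg replicate 1, and a spot near background on the dim array gave 3.73. The male 2 mg array gave 8.67, and the male arrays at 20 mg gave 9.73 and 7.58. Both female arrays at 20 mg were below all 4 other arrays. The female differences were -3.05 and -4.66 (mean -3.85, SD of the 20 mg arrays 1.14, n = 2), and the first comes from arrays of the same slide. The male 20 mg arrays differed from the 2 mg array by 1.06 and -1.09.

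On the 5 arrays other than the dim one, Dbh and Slc6a2 gave the same order, from male 20 mg replicate 1 through male 2 mg, female 2 mg and male 20 mg replicate 2 to female 20 mg replicate 1. On the dim array Dbh was at its highest and Slc6a2 at its lowest. Female 20 mg replicate 1 was thus the lowest of these 5 arrays for the enzyme and for the transporter, and for Th as well.

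**Figure D2:**
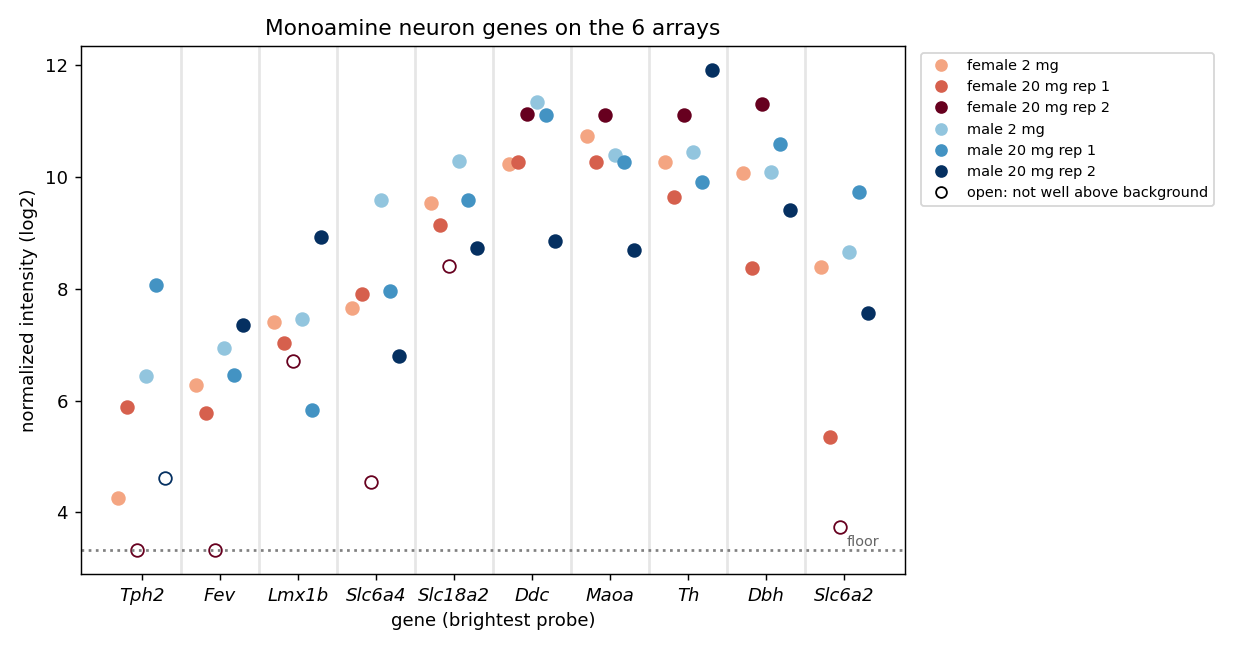
Normalized intensity (log2, y axis) of the brightest probe of each of the 10 genes, with serotonin neuron genes at the left, shared genes in the middle and noradrenaline and dopamine genes at the right. Each point is 1 array, an open point was not well above background, and the dotted line is the floor of 3.32. Levels are compared between arrays within a gene; Slc6a4 is highest on the male 2 mg array and Slc6a2 is lowest on both female 20 mg arrays.

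The study's rule counts a transcript as changed where the mean of both 20 mg arrays lies at least 2.5-fold (1.32 on the log2 scale) from the 2 mg array of the sex and its variance over the arrays passes a filter. In males 1 of the 10 genes was lower by this rule, Slc6a4, and 0 were higher, against 2.17% of all probes lower and 1.42% higher. The study names Slc6a4 from this male comparison, so that count is a description only. Ddc was past 2.5-fold, with a mean of -1.36, but did not pass the filter on variance. Over all 13 probes, the dimmer Slc18a2 probe was also lower in males by this rule (-2.56), while the brighter one was not. In females 3 genes were lower, Slc6a4, Fev and Slc6a2, and 0 were higher, against 10.3% of all probes lower and 8.65% higher. All 3 were at or near background on the dim array. Without that array the female genes past the rule were Slc6a2 and Dbh, which were lower, and Tph2, which was higher. The share of all probes past the rule without that array was not counted.

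**Figure D3:**
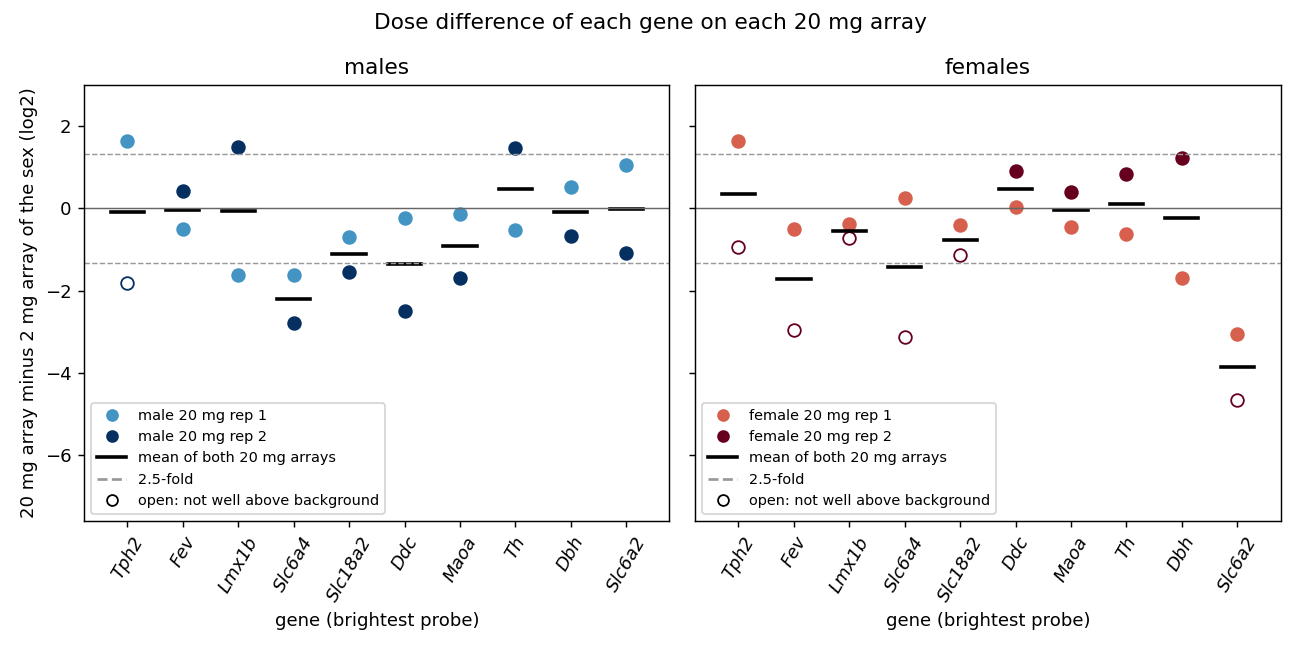
Difference in log2 intensity between each 20 mg array and the 2 mg array of its sex (y axis) for the 10 genes, males at the left and females at the right. Points are arrays, open where not well above background, black bars are means of both arrays, and dashed lines mark 2.5-fold; Slc6a4 in males and Slc6a2 in females lie past the lower line on both arrays.

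Taken singly, both male 20 mg arrays were past 2.5-fold for 1 gene, Slc6a4, which was lower, and 1.29% of all probes were lower on both. Both female 20 mg arrays were past it for 1 gene, Slc6a2, which was lower, against 1.28% of all probes. Of any size, 4 of the 10 genes were lower on both male arrays (Slc6a4, Slc18a2, Ddc and Maoa) and 0 were higher on both. Slc6a4 and Slc18a2 are named by the study from the male comparison, so their part in the male counts is a description only. Among all probes well above background on at least 2 arrays, 23.5% were lower and 20.4% higher on both. In females 4 genes were lower on both arrays (Slc18a2, Fev, Slc6a2 and Lmx1b) and Ddc was higher on both, against 28% and 21.2% of probes. None of those 4 lower genes was well above background on the dim array. The median difference over the 10 genes was -0.09 in males and -0.39 in females, against -0.04 and -0.21 over those probes. The SD of the 20 mg arrays was larger than the mean difference for 8 of the 10 genes in males and 7 in females, against 66.3% and 70.9% of those probes.

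A limma fit of 37211 probes set these differences against 1 spread for each probe. That spread joins the pairs of 20 mg arrays of both sexes and is drawn toward the spread of probes of like level. The SE of a probe is therefore the same in males and females, and in males too it includes the dim array. The 20 mg arrays of a sex also differ in slide and scan day. The fit assumes that arrays at 2 mg vary as much. With Benjamini-Hochberg adjustment over all probes it called 0 of the 10 genes in females, 0 of the 8 genes other than Slc6a4 and Slc18a2 in males and 0 probes in all, a share of 0% in each comparison. At an unadjusted p under 0.05 limma called 0 of these genes in either sex, and 74 probes in males and 161 in females (0.199% and 0.433%). Slc6a2 in females, with a difference of -3.85 and a standard error (SE) of 2.14, had an adjusted p of 1 in limma. SEs of the 10 genes ran from 1.25 to 2.16 on the log2 scale, as large as or larger than most of the differences. Over both sexes, between the sexes and for the difference of the dose effect between sexes limma likewise called 0 genes, with adjusted p-values of 1.00. For Slc6a2 that last difference, female minus male, was -3.84 with an SE of 3.02 (limma, adjusted p = 1.00).

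**Figure D4:**
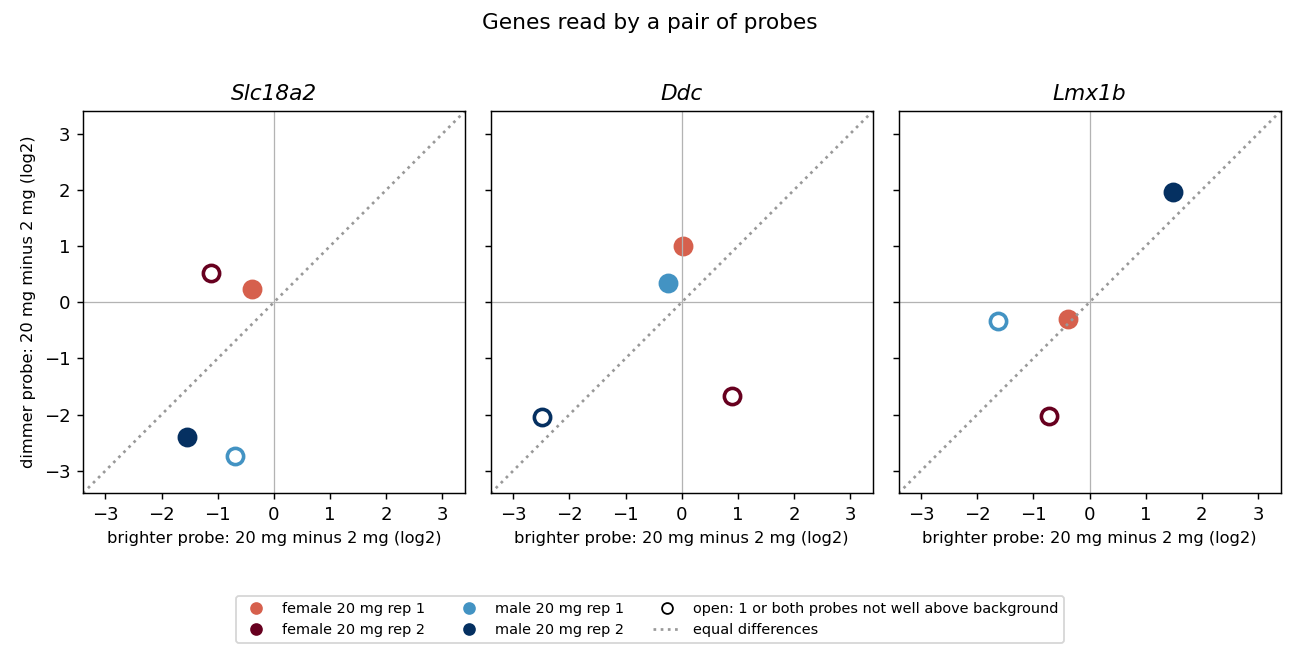
Dose difference (log2) of the dimmer probe (y axis) against that of the brighter probe (x axis) for Slc18a2, Ddc and Lmx1b, with 1 point for each 20 mg array against the 2 mg array of its sex. On the dotted line the probes of a gene would give equal differences; for Slc18a2 both male arrays lie below it and both female arrays above.

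The probe pairs of the other genes also differed. For Ddc in females the brighter probe gave 0.02 and 0.90 and the dimmer probe 1.00 and -1.66, the last on a spot that was not well above background. Both Lmx1b probes gave negative differences on both female arrays and on male 20 mg replicate 1. They gave positive ones of 1.48 and 1.97 on male 20 mg replicate 2. On the dim array neither spot was well above background, and on male 20 mg replicate 1 the dimmer one was not. The Lmx1b probes read coding sequence at bases 195 and 962 of the transcript, at chr2:33495011-33495070 and chr2:33420253-33420312 on the minus strand.
Lmx1b A_55_P2146295: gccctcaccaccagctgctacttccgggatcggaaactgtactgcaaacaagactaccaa
Lmx1b A_55_P2146297: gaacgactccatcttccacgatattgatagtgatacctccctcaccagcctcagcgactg

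Each dose difference is set against a single 2 mg pool. The male and female 2 mg pools lay on the same slide, and 9 of the 10 genes were higher in the male pool, against 50.1% of all probes that at least 2 arrays measured well above background. Tph2 was higher by 2.18 and Slc6a4 by 1.93, both past 2.5-fold, while 0.93% of all probes were past it in this direction. Ddc was higher by 1.10, Slc18a2 by 0.75 and Fev by 0.67, and the 5 remaining genes lay between -0.34 and 0.28. The male 2 mg pool was the highest of all 6 for Slc6a4, Slc18a2 and Ddc. With the mean of both 2 mg arrays as the reference, the male difference of Slc6a4 was -1.23, which is not past 2.5-fold, and 0 genes were past the rule in males.

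Genes of other brainstem cells went the opposite way between the 2 mg pools. Of 25 such genes, 24 were lower in the male than in the female 2 mg pool and 1 was equal, at the floor, with a median difference of -1.78. The 13 Hox genes among them, which mark the hindbrain and spinal cord, were all lower, with a median of -2.30, and the 12 other genes had a median of -0.78. The forebrain list had a median of -0.94 and the cerebellum list one of 0.06. The choroid plexus list went the way of the monoamine genes, with a median of 1.08 and 6 of 8 genes higher in the male pool, Ttr at 14.26 against 11.21, and its part in their values was not tested. The male pools at 20 mg held 3 and 5 of the 25 brainstem genes more than 2.5-fold above the male 2 mg pool, where 5.69% and 7.42% of all probes were. The count was 15 in the female 2 mg pool (0.916% of all probes), 12 in female 20 mg replicate 1 (0.855%) and 9 on the dim array (24.5%). The summed level of the brainstem list ran from 13.09 (log2) on the male 2 mg array to 15.14 on the female 2 mg array. With 1 pool for each sex at 2 mg, these differences have no replicate and no test.

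**Figure D5:**
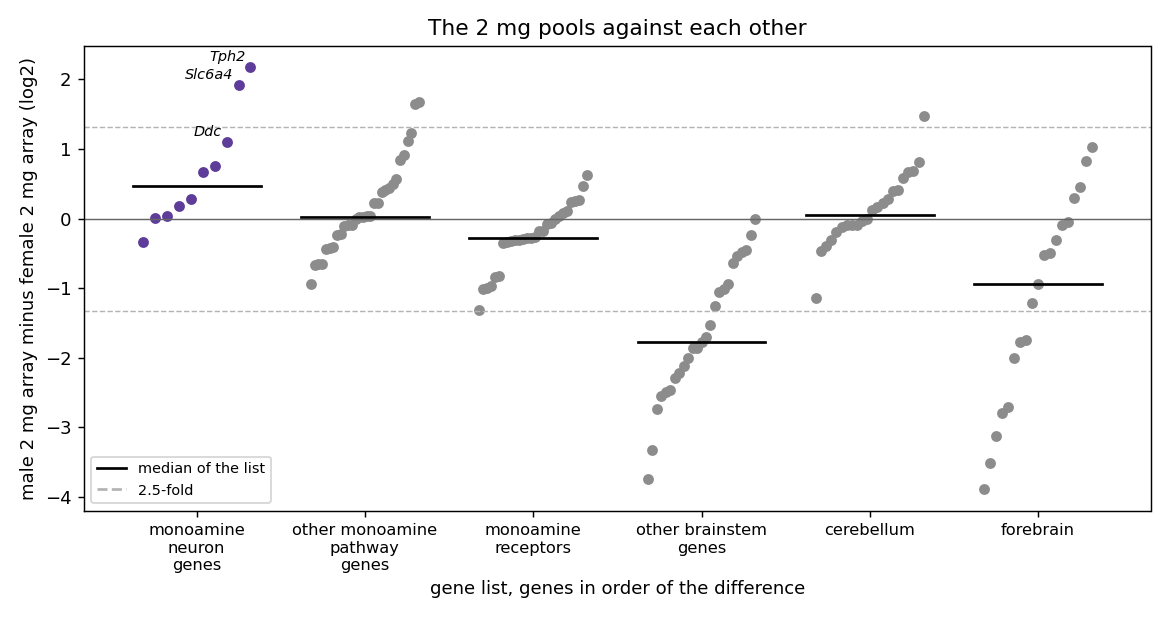
Male 2 mg array minus female 2 mg array (log2, y axis) for each gene of 6 lists, in order within the list, with the median as a black bar and 2.5-fold as dashed lines. Tph2 and Slc6a4 lie above the upper line, and the other brainstem genes lie at or below 0 with a median of -1.78.

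The wider monoamine pathway was followed with a list of 30 other genes, of enzymes, cofactor enzymes, transporters and transcription factors. Of these, 24 to 29 were well above background on the 5 arrays other than the dim one, and 16 on the dim array. By the fold rule 2 were lower in males and 0 were higher, against 2.17% and 1.42% of all probes. The lower ones were Slc6a3, the dopamine transporter (-1.49), and Foxa2, a factor of midbrain dopamine neurons (-2.25). Both values rest on male 20 mg replicate 2, where they were -2.32 and -4.29, while on replicate 1 they were -0.67 and -0.21. In females Pts, Gata2, Maob and Pitx3 were lower and Foxa2 was higher, against 10.3% and 8.65% of all probes. On female 20 mg replicate 1 alone none of these 5 was past 2.5-fold. The list held 0 genes past 2.5-fold on both arrays of a sex. Its median difference was -0.34 in males and -0.08 in females, and limma called 0 of the 29 genes fitted.

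Receptors are made by the cells on which monoamine axons end, so their RNA is at home in a target tissue. Of 28 receptors for serotonin, dopamine and noradrenaline, 16 to 26 were well above background on the 5 arrays and 6 on the dim array. By the fold rule 1 was higher in males, the noradrenaline receptor Adra1b (1.90), against 1.42% of all probes. In females Adra1b and Adrb3 were higher, and Adra2b and Htr5b were lower, against 8.65% and 10.3% of all probes. All 4 female values rest on the dim array, since on replicate 1 they lay between -0.74 and 0.64. The list held 0 receptors past 2.5-fold on both arrays of a sex, and limma called 0 of the 25 fitted.

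The marker lists of the sampled tissue moved as follows. Among choroid plexus genes, 5 of 8 were past 2.5-fold higher on both female 20 mg arrays, with Ttr, the thyroxine carrier of the choroid plexus, at 4.95 and 3.38, and Clic6, Folr1, Kcnj13 and Aqp1 with means of 2.06 to 2.80. In males 0 of 8 were. Of the rest of the list in females, Prlr was lower by the fold rule (-0.77, and -3.41 on the dim array). Otx2 and Kl had female means of 0.27 and -0.73. Of the brainstem list Prph, an intermediate filament gene of peripheral and motor neurons, was higher on both male 20 mg arrays (1.55 and 1.42), and Hoxa5 was lower on both female ones (-2.93 and -3.52). Of the cerebellum list Reln, the secreted protein that guides neuron placement, was higher on both arrays of each sex, with means of 1.70 in males and 2.41 in females. Of the forebrain list Lhx6 was higher on both male arrays (1.43 and 2.83). Nkx2-1, well above background on 2 arrays, was lower on both female ones. Of all probes, 1.29% in males and 1.28% in females were past 2.5-fold lower on both arrays. The share of all probes past 2.5-fold higher on both was not counted. The lists of meninges, of red blood cells and of other organs held 0 genes past 2.5-fold on both arrays of a sex. Limma called 0 genes of these lists in either sex, and their part in the monoamine values was not tested.

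Summed over the genes of a list, the level on the log2 scale ran over the 6 arrays from 12.19 to 13.25 for the 10 monoamine genes. It ran from 14.83 to 15.79 for the wider pathway, from 13.06 to 14.75 for the receptors, from 15.44 to 16.14 for the cerebellum list and from 14.46 to 16.32 for the forebrain list. The choroid plexus list, from 12.67 to 16.32, had the widest range, and the meninges list ran from 13.88 to 15.09, the red blood cell list from 14.84 to 17.47 and that of other organs from 9.38 to 11.62. The dim array gave the highest sum for the monoamine genes, the receptors, the forebrain list and other organs. It gave the lowest for meninges and red blood cells. Without it the receptors ran from 13.06 to 13.31 and the other organs from 9.38 to 10.89. The brightest probes of a list set most of its sum.

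The genes whose pattern over the 6 arrays was most like that of Slc6a4, among 16913 genes well above background on at least 4 arrays, were 1700012D14Rik, Sfmbt2, Snhg1, 6030451C04Rik and Dcn, with Pearson r from 0.98 to 0.99. Of the other monoamine genes Slc18a2 came nearest, with r of 0.93 and rank 130, followed by Fev (0.76), Slc6a2 (0.73), Tph2 (0.71), Ddc (0.15), Lmx1b (0.02), Maoa (-0.16), Dbh (-0.43) and Th (-0.51). For Dbh the nearest were Rbp4, Exosc2, Pcyt1b, Ttll1 and Rbm25, also at 0.98 to 0.99, and none of the 9 other monoamine genes passed the 0.56 of Ddc. The rest followed with Maoa at 0.50, Th at 0.24, Slc6a2 at 0.00, Slc18a2 at -0.09, Tph2 at -0.17, Lmx1b at -0.43, Slc6a4 at -0.43 and Fev at -0.49. Without the dim array, over 5 arrays, this order changed: with Slc6a4, Slc18a2 had an r of 0.93, Ddc 0.86, Maoa 0.60, Tph2 0.47, Dbh 0.27, Slc6a2 0.25, Fev -0.07, Lmx1b -0.37 and Th -0.45. With Dbh, Slc6a2 then had an r of 0.99, against 0.00 over all 6 arrays, and the others lay between -0.35 and 0.56. The 6 points share slides and scan days, and the dim array lies far from the others for Slc6a4, so these coefficients are a description with no p.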

How the data were processed

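RNA pools of P1 cerebellum were measured on 6 arrays, whose labels give sex and dose. The deposited scanner intensities come from Agilent Feature Extraction 10.7.3.1, run by the authors, which subtracts background and sets flags of 0 or 1. The log2 values in the deposited table were quantile normalized by the authors with a floor. Here, outlier spots were left out, the processed signal of each probe was log2-transformed and quantile normalized across the 6 arrays, and values under 10 were set to 10. The variation filter kept probes with a chi-square p at or under 0.05 (15247 of 55681). The fold rule has no test. Quantile normalization gives the dim array the spread of the others, so spots near background on it can take middle levels of that scale. The brighter Slc18a2 probe there had a processed signal of 14.4, not well above background, and was set at 8.40. Limma 3.58.1 (R 4.3.3) was fitted to probes well above background on at least 2 arrays. The fit had 4 groups, a trend and 2 residual degrees of freedom. Its code was checked on simulated data with far less noise than these arrays. That check does not show what limma could detect here. Limma takes 1 spread for each probe from the male and female pairs of 20 mg arrays joined. The arrays of a pair differ in pool, slide and scan day together. The number of arrays limits the precision.

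The genes, the marker lists and the tests were chosen with earlier results of these data known. All 10 genes are named with every probe. List genes are named where past 2.5-fold on both 20 mg arrays of a sex, and where a count is 5 or fewer they were named after their values were seen. The 5 genes most like Slc6a4 and Dbh by Pearson r are named. As alternatives, arrays were aligned at the 75th percentile, or the floor was set first. Normexp, no background correction, the deposited table, other filters and thresholds, and blocks for scan day or slide were tried. So was leaving out each 20 mg array. Positions are those of the array design in mm9, and no annotation of that build was used.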

Additional observations from a re-analysis of the deposited data

Results flagged for a closer look

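For 2 of the 13 probes every 20 mg array of one sex lay above the 2 mg array and every 20 mg array of the other sex below it. The share of all probes with such a pattern was not counted. Among probes well above background on at least 2 arrays, 23.5% were lower on both male arrays and 21.2% higher on both female arrays. The dimmer Slc18a2 probe differed by -2.73 and -2.40 in males and by 0.24 and 0.52 in females, so that the female mean difference was 2.94 above the male one. The brighter Slc18a2 probe, which shares 13 bases with it, was negative on all 4 arrays. Neither spot was well above background on the dim array, and the dimmer one was not on male 20 mg replicate 1. The brighter Ddc probe differed by -0.24 and -2.49 in males and by 0.02 and 0.90 in females, a gap of 1.82 between the sexes (limma, adjusted p = 1.00 for the interaction). The Slc18a2 gap was not tested, since the study names this gene from the male comparison.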

How the results depend on the processing

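Limma called 0 of the genes in every comparison under all alternatives run, with smallest adjusted p-values from 0.468 (sex, slide as a block) to 1. The count of genes past 2.5-fold that also passed the variation filter was 1 in males and 3 in females. After a shift to a common 75th percentile it was 0 in each sex, where the variation filter kept 2432 probes in place of 15247, although Slc6a4 differed by -2.13 in males. In males the deposited table gave 2 and no variation filter 2, each time Slc6a4 and Ddc as lower. Slc18a2 differed by -1.59 in males in the deposited table, past 2.5-fold, but was not called there. Both 2 mg arrays as the reference gave 0 in males, and the later scan day alone gave 6 (4 lower, 2 higher). These last 2 alternatives were chosen after seeing the data. The share of all probes past the rule on the later scan day was not counted. Male 20 mg replicate 2 is the 1 male array at 20 mg on that day. In females normexp gave 1 and no background correction 1. The deposited table gave 2 in females, Slc6a2 and Lmx1b, without Slc6a4 and Fev. With the floor set first the female count was 4, Slc6a4, Fev, Slc6a2 and Lmx1b. The female difference of Lmx1b, -0.54 in the main values, ran from -1.77 to -0.18 over 11 alternatives, the other probe among them. With each 20 mg array left out in turn the counts were 1 to 2 in males and 3 in females. The 2 mg arrays were not left out, since each sex has 1.

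Slc6a4 in males was negative in all 10 alternatives (-2.80 to -1.61) and Slc6a2 in females in all 10 (-4.53 to -1.84). The female difference of Slc6a4 ran from -3.04 to 0.26 with each 20 mg array left out. It turned to 0.26 without female 20 mg replicate 2 and was 0.25 on the later scan day alone. Without male 20 mg replicate 1, Tph2 was past the rule as lower in males, and without male 20 mg replicate 2 as higher. Found above background in place of well above background, 6 genes in place of 4 held on all arrays. No paired analysis was possible because each 2 mg group holds 1 array, so the groups compared share fewer than 2 replicate numbers. The low signal of the array labelled female 20 mg replicate 2 limits every female value.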
